A study of Mus musculus with 6 samples.

Results

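The genes described here encode 8 enzymes of serine synthesis and folate-dependent one-carbon metabolism: Phgdh, Psat1, Psph, Shmt1, Shmt2, Mthfd1, Mthfd2 and Mthfd1l. They were chosen by function, as the rows of the count table that carry these symbols, and all 8 were found among its 15212 genes. Bulk RNA-Seq was performed on activated pulmonary ILC2s, group 2 innate lymphoid cells that lack rearranged antigen receptors and release type 2 cytokines in answer to the alarmin IL-33. The question was how loss of VISTA, an inhibitory checkpoint receptor encoded by Vsir, changes the transcriptome of these cells. Of the 6 libraries, 3 came from Vsir-/- (VISTA KO) mice and 3 from WT mice. The WT strain was BALB/cByJ and both genotypes had a BALB/c background. The mice were 5 to 8 weeks old and received 0.5 µg of intranasal rmIL-33 on each of 3 days, with ILC2s isolated on day 4, so there is no unchallenged group. The Vsir-/- mice were of the strain B6N.129S5(B6)-Vsirtm1Lex/Mmucd, whose germline allele removes VISTA from every cell type and not from ILC2s alone. ILC2s were sorted as CD45+ ST2+ CD127+ cells without lineage markers, and the labels speak of isolation without culture as well as of cultured cells. Neither the labels nor the study's methods say whether the libraries of a genotype came from separate mice, so the spread behind the p-values is that between libraries and may be technical.

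Serine is made from the glycolytic intermediate 3-phosphoglycerate by PHGDH, PSAT1 and PSPH. Serine hydroxymethyltransferase then moves a one-carbon unit from serine to tetrahydrofolate and releases glycine, in the cytosol by SHMT1 and in mitochondria by SHMT2. The mitochondrial enzymes MTHFD2 and MTHFD1L oxidise this unit and release it as formate, and the cytosolic MTHFD1 joins formate to tetrahydrofolate again for the synthesis of purines and thymidylate and for the methionine cycle. Dividing lymphocytes are known to draw on both branches.

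Total counts were 15747214 to 16638103 in the Vsir-/- libraries, against 15680871, 29197984 and 16840737 in WT replicates 1, 2 and 3. Vsir had 0, 2 and 0 counts in the Vsir-/- libraries and 109, 185 and 126 counts in the WT libraries, and was thus all but absent where the labels say VISTA KO. In both genotypes the labels of replicates 1 and 2 hold the same number, and the suffix S0 stands only in those of WT replicates 2 and 3. Values without these libraries are given beside the enzyme genes whose calls depend on them. The receptors of the sort were present, with Il1rl1 (ST2) at 536 to 591 CPM in Vsir-/- libraries and 539.5 to 630.2 CPM in WT libraries, and Il7r (CD127) at 167 to 183 CPM in Vsir-/- libraries and 84.2 to 98.2 CPM in WT libraries. Of 12 ILC2 markers 4 were higher (Il7r, Il2ra, Il5 and Il13), 5 were lower (Gata3 with a log2 fold change of -0.80, Thy1 with -1.88, Icos with -1.16, Rora with -0.76 and Klrg1 with -0.98) and 3 were not called. Of all genes tested, 18.9% were called higher and 20.1% lower. CPM are counts divided by the library's total and by its TMM factor. Of 10 T cell markers, 6 are listed in the table, 5 were tested and 4 were lower in Vsir-/- ILC2s. The T cell markers summed to 78.4 to 97.3 CPM in Vsir-/- libraries and 168 to 203 CPM in WT libraries. Among the markers that the sort excluded, Cd3e had 3.21 to 4.61 CPM in Vsir-/- libraries and 7.97 to 9.02 CPM in WT libraries, Trbc2 had 42.7 to 50.3 CPM in Vsir-/- libraries and 90.7 to 111 CPM in WT libraries, and Itgax and Itgam had 0.560 to 2.31 CPM in Vsir-/- libraries and 0.757 to 1.94 CPM in WT libraries. Cd4, Cd5 and Ncr1 stood on the marker lists but were not tested, being absent from the count table or below the filter on low counts. Of the myeloid markers 2 of 6 tested were lower (Cd68 and Ly6c2), and the list summed to 10.6 to 12.1 CPM in Vsir-/- libraries and 16.1 to 24.3 CPM in WT libraries. Of the granulocyte and mast cell markers Mcpt8 was higher and Cpa3, at 0 in 2 Vsir-/- libraries, was lower, with sums of 3.02 to 5.91 CPM in Vsir-/- libraries and 1.94 to 2.79 CPM in WT libraries. Of the epithelial, endothelial and stromal markers Epcam was lower and Pecam1 higher, with sums of 53.7 to 58.4 CPM in Vsir-/- libraries and 57.0 to 62.9 CPM in WT libraries. No B cell or NK cell marker was called with all libraries (3 tested). Ighm, the heavy chain of IgM, had 21.1, 21.0 and 1.18 CPM in Vsir-/- libraries, against 4.57, 4.64 and 4.13 CPM in WT libraries, so that Vsir-/- replicate 3 stood apart, and it was called higher without that library (edgeR adjusted p = 3.79e-06). The myeloid marker Lyz2 had 2.01 to 2.63 CPM in Vsir-/- libraries, against 3.69, 4.26 and 0.0582 CPM in WT libraries, and was called without WT replicate 3 (adjusted p = 0.0248). The part of these cell types in the results below was not tested.

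To place cytosolic and mitochondrial folate enzymes side by side, the 250 bases before the transcription start of each of 4 genes are shown, as RefSeq gives them for GRCm38.p6. SHMT1 and SHMT2 carry out the same reaction, as do parts of MTHFD1 and MTHFD2, and in each pair the cytosolic gene had the larger fold change in Vsir-/- ILC2s. Capitals mark CCAAT boxes (CCAAT, or ATTGG where the box is on the other strand) and GC boxes (GGGCGG, or CCGCCC on the other strand). The windows are chr11:60811266-60811515 for Shmt1, chr10:127522445-127522694 for Shmt2, chr12:76254982-76255231 for Mthfd1 and chr6:83317605-83317854 for Mthfd2, with only Mthfd1 on the plus strand, and each is written from 5′ to 3′ on the strand of its gene. These starts are those of RefSeq. The outermost start of the gene in GENCODE M21 is the same for Shmt2, but the RefSeq start lies 66 bases upstream of it for Mthfd1, and 453 bases and 8.30 kb downstream of it, inside the gene, for Shmt1 and Mthfd2.
Shmt1: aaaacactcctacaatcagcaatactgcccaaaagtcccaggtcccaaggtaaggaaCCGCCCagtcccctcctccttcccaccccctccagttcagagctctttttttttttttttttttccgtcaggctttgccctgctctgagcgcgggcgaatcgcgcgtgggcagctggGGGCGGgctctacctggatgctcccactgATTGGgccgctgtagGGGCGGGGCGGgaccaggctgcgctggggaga
Shmt2: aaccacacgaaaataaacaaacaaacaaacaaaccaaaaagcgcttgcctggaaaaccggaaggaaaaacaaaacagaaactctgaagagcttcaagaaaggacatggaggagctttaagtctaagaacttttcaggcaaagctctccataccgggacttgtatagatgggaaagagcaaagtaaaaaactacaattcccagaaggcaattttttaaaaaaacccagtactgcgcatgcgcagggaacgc
Mthfd1: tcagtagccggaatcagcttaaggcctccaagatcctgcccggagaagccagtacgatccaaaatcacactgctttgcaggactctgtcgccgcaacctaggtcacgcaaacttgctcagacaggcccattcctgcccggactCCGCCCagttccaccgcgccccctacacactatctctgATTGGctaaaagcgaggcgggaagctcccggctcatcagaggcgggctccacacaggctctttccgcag
Mthfd2: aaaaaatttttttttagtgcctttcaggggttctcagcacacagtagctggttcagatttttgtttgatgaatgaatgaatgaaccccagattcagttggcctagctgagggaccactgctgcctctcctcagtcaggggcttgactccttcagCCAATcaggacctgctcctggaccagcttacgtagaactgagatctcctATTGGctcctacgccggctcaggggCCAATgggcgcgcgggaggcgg
The Shmt1 window held 1 CCAAT box and 4 GC boxes, of which the last 2 share 1 base. The Shmt2 window held neither, and its GC content was 40.8%, the lowest of the 4 windows printed, against 60.0% for Shmt1. Mthfd1 had 1 CCAAT box and 1 GC box, and Mthfd2 had 3 CCAAT boxes and no GC box. A GC box also lay before the mitochondrial gene Mthfd1l, whose window is not printed, so GC boxes were not confined to cytosolic genes. The 8 genes have 9 windows, since Psat1 has 2, whose starts lie 22.3 and 22.7 kb inside its GENCODE span. A CCAAT box lay in 6 of the 9 windows and in 33.9% of 32851 windows of the same length, and a GC box lay in 5 of the 9 and in 32.7% of all windows. Psat1 had CCAAT boxes in 1 of its windows and a GC box in the other. Both motifs were added after 2 others had been searched on both strands: the composite element TGATGNAA, which the factor ATF4 can bind, and the E-box CACGTG, which MYC can bind. Neither of these had a match before any of the 8 genes, while they matched 3.45% and 6.02% of all windows. These letters describe the windows only.

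All 8 genes passed the filter on low counts. Of these, 6 were higher in Vsir-/- ILC2s (Phgdh, Psat1, Shmt1, Shmt2, Mthfd1 and Mthfd1l), none was lower, and Psph and Mthfd2 did not pass the test. The test was the quasi-likelihood F test of edgeR, adjusted by the Benjamini-Hochberg method over 13166 genes, with a threshold of 0.05. In that fit 38.9% of all genes were called, 18.9% as higher and 20.1% as lower in Vsir-/- ILC2s. Among the 2925 genes with a mean CPM at or above that of the lowest enzyme gene, 50.9% were called, 28.0% as higher. The median log2 fold change was 0.32 over the 8 genes and -0.01 over all genes tested, and the median size of the change over all genes, whatever its sign, was 0.32. Summed over the 8 genes, the level was 2150 to 2236 CPM in Vsir-/- libraries and 1676 to 1809 CPM in WT libraries. In bulk libraries, more cells that express a gene and more RNA of it per cell cannot be told apart.

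**Figure D1:**
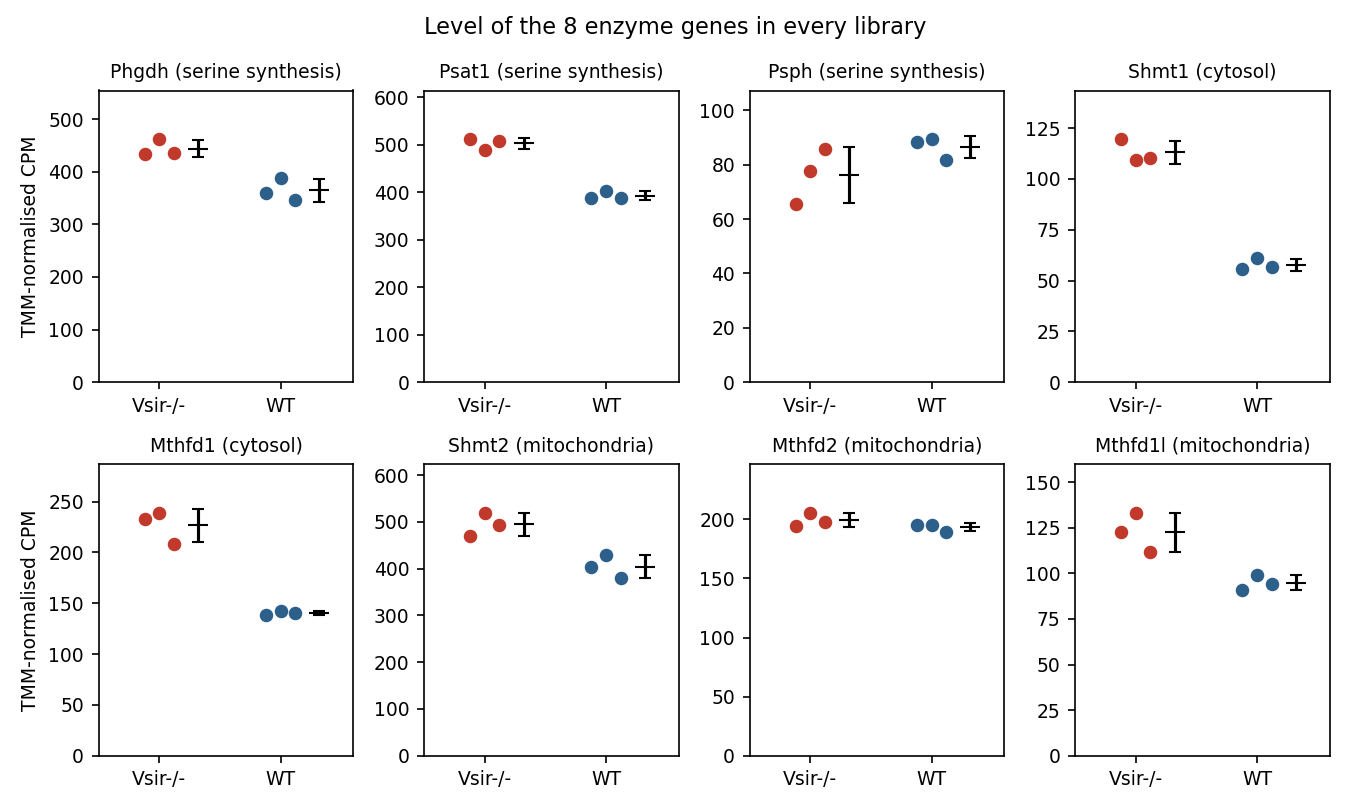
TMM-normalised CPM of the 8 enzyme genes (vertical axes, from 0) in the Vsir-/- libraries (red, left) and the WT libraries (blue, right); each point is 1 library, and the bar beside each group is the mean ± SD (n = 3). Shmt1 and Mthfd1 show the widest gaps relative to the WT level, with means of 113 against 57.8 CPM and 227 against 140.2 CPM, while the points of Psph and Mthfd2 overlap between the genotypes.

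The cytosolic folate enzymes Shmt1 and Mthfd1 had the largest fold changes of the 8. Shmt1 had 119.5, 109 and 110.3 CPM in Vsir-/- libraries, against 55.8, 61.1 and 56.5 CPM in WT libraries. Every Vsir-/- library lay far above every WT library, and the spread within a genotype was small (CV 5.02% in Vsir-/- and 4.99% in WT). The difference was 1.95-fold (log2 fold change 0.97, SE 0.09, edgeR adjusted p = 1.77e-05), larger in size than in 87.9% of all genes tested. This call held in all 19 alternative analyses, with adjusted p-values up to 0.00189.

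Mthfd1, the cytosolic trifunctional enzyme that loads formate onto tetrahydrofolate, had 232, 239 and 208 CPM in Vsir-/- libraries, against 138, 142 and 140.4 CPM in WT libraries. The WT libraries were almost equal (CV 1.49%), whereas Vsir-/- replicate 3 was the lowest of its group and still above all WT libraries. The difference was 1.62-fold (log2 fold change 0.69, SE 0.08, edgeR adjusted p = 0.000123). It held in all 19 alternatives too, with log2 fold changes of 0.66 to 0.77. Of all genes tested, 10.1% were called and over 1.5-fold higher, as these 2 genes were, and no other of the 8 reached 1.5-fold.

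The first enzymes of serine synthesis rose, by 1.22-fold and 1.28-fold. Phgdh, which oxidises 3-phosphoglycerate and commits it to serine, had 434, 462 and 435 CPM in Vsir-/- libraries, against 360.5, 389 and 346 CPM in WT libraries. The genotypes did not overlap, and the nearest libraries were Vsir-/- replicate 1 and WT replicate 2. The log2 fold change was 0.28 (SE 0.08, edgeR adjusted p = 0.0189), or 1.22-fold. The call was lost without WT replicate 1 (log2 fold change 0.27, adjusted p = 0.0900) and without WT replicate 3 (0.24, adjusted p = 0.0582). It was lost as well without the S0 libraries (adjusted p = 0.168), with 1 library per label number (0.159 for replicates 2 and 3, 0.0623 for replicates 1 and 3) and with replicates 1 and 2 summed (0.0978).

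Phgdh counts carry an uncertainty of their own, since the mouse genome holds many processed pseudogenes that are near copies of its mRNA. The table lists 9 of them, and the closest, Gm7901, is 98.7% identical to Phgdh over 1597 bases. Together the 9 had 9.15% to 10.3% of the Phgdh level in Vsir-/- libraries and 9.10% to 10.8% in WT libraries. How the authors divided reads among these copies is not given in the sources used here. With the counts of these copies added to Phgdh, the log2 fold change was 0.28 and the adjusted p was 0.0196.

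Psat1, the transaminase that follows, had 512, 489 and 508 CPM in Vsir-/- libraries, against 388, 404 and 387 CPM in WT libraries. Both groups were tight (CV 2.39% in Vsir-/- and 2.31% in WT) and lay apart from each other. The log2 fold change was 0.36 (SE 0.07, edgeR adjusted p = 0.00353), or 1.28-fold, and it stayed past the threshold whichever library was left out. With 1 library per label number the adjusted p was 0.0929 (replicates 2 and 3) or 0.0224 (replicates 1 and 3), and without the S0 libraries it was 0.0880.

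Psph, the phosphatase of the last step, had 65.4, 77.7 and 86.0 CPM in Vsir-/- libraries, against 88.4, 89.5 and 81.7 CPM in WT libraries. It was the most variable of the 8 genes among Vsir-/- libraries (CV 13.5%), and Vsir-/- replicate 3 lay within the WT range. The log2 fold change was -0.18 (edgeR adjusted p = 0.223), with a 95% confidence interval of -0.42 to 0.06. A fall of up to 0.42 or a rise of up to 0.06 on the log2 scale was thus within the interval, and the 3 serine synthesis genes were not called together. Psph overlaps Cct6a, a subunit gene of a chaperonin, on the other strand. Cct6a had 603 to 615 CPM in Vsir-/- libraries and 329.7 to 377 CPM in WT libraries, and whether reads were assigned by strand is not given in the sources used here.

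**Figure D2:**
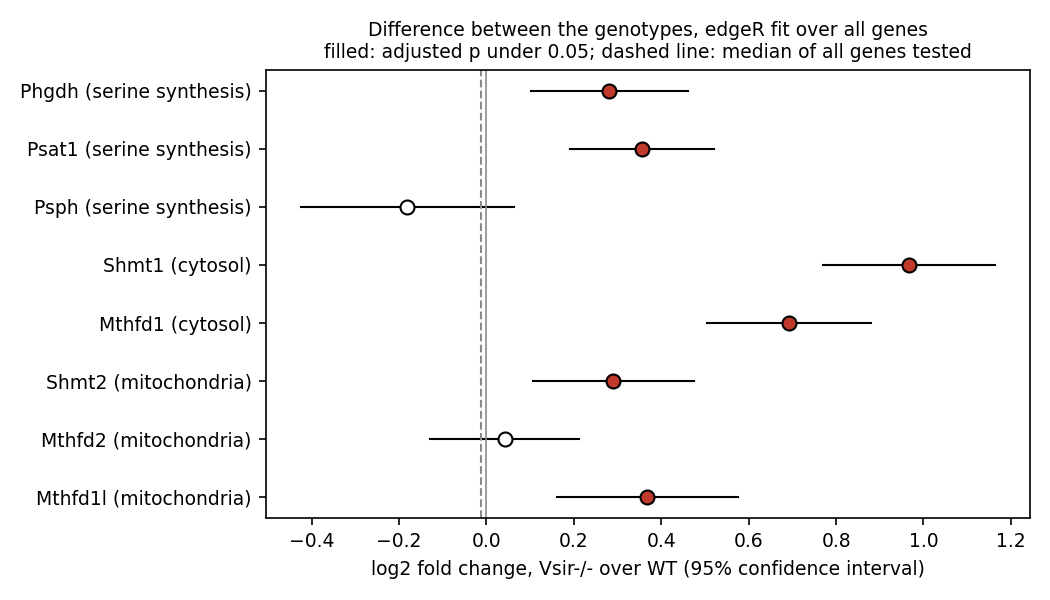
Log2 fold change of Vsir-/- over WT (horizontal axis) for each of the 8 genes, with its 95% confidence interval; filled points passed an adjusted p of 0.05 in the edgeR fit, the solid line marks 0, and the dashed line marks the median of all genes tested (-0.01). The intervals of Shmt1 and Mthfd1 start at 0.77 and 0.50, whereas those of Psph and Mthfd2 include 0.

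Of the 3 mitochondrial enzymes 2 rose, with smaller fold changes than Shmt1 and Mthfd1, and 1 was not called; these differences between enzymes were not tested. Shmt2, the mitochondrial serine hydroxymethyltransferase, had 471, 519.8 and 493 CPM in Vsir-/- libraries, against 403, 429 and 380.3 CPM in WT libraries. The genotypes did not overlap, with Vsir-/- replicate 1 and WT replicate 2 nearest to each other as for Phgdh. The log2 fold change was 0.29 (SE 0.08, edgeR adjusted p = 0.0180), or 1.22-fold, and it was no longer past the threshold without WT replicate 1 (log2 fold change 0.29, adjusted p = 0.0775) or WT replicate 3 (0.25, adjusted p = 0.0572). The call was also lost without the S0 libraries (adjusted p = 0.180), with 1 library per label number (0.113 for replicates 2 and 3, 0.0638 for replicates 1 and 3) and with replicates 1 and 2 summed (0.0783).

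Mthfd1l, which releases formate in mitochondria, had 122, 133 and 112 CPM in Vsir-/- libraries, against 91.0, 99.1 and 94.3 CPM in WT libraries. Vsir-/- replicate 3 was again the lowest of its group, as for Mthfd1, and lay above every WT library. The log2 fold change was 0.37 (SE 0.09, edgeR adjusted p = 0.0101), or 1.29-fold. Without WT replicate 1 the adjusted p was 0.0601 at a log2 fold change of 0.34. It was 0.0956 without the S0 libraries, 0.125 and 0.0731 with 1 library per label number (replicates 2 and 3, and replicates 1 and 3), and 0.0869 with replicates 1 and 2 summed.

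Mthfd2, the mitochondrial dehydrogenase and cyclohydrolase that stands between SHMT2 and MTHFD1L, had 194, 206 and 197 CPM in Vsir-/- libraries, against 195, 196 and 189.6 CPM in WT libraries. These 6 values lay close together and the genotypes overlapped. The log2 fold change was 0.04 (edgeR adjusted p = 0.704), with a 95% confidence interval of -0.13 to 0.21, so that a change beyond 1.16-fold upwards or 0.915-fold downwards lay outside the interval.

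The calls of Phgdh, Shmt2 and Mthfd1l are those that depend on single WT libraries. Without WT replicate 1, 3 of the 8 genes were called (Psat1, Shmt1 and Mthfd1), and without WT replicate 3, 4 were called. The counts over all genes in those fits were 3922 and 4849, in place of 5124. Leaving out WT replicate 2 or any Vsir-/- library left the count at 6. Without the S0 libraries, which leaves 1 WT library whose spread is taken to be that of the other group, 2 were called (Shmt1 and Mthfd1), while the count over all genes was 2480. The genotypes did not overlap for the same 6 genes that were called, with Vsir-/- above WT in each, and this was so for 23.6% of all genes tested, while 25.8% had Vsir-/- below WT (49.4% in either direction).

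The log2 ratio of a mitochondrial to a cytosolic enzyme within a library was described with no test, since the ratio is a score over these genes. It compares mRNA levels and does not show how much each branch is used. For Shmt2 over Shmt1 it was 1.98, 2.25 and 2.16 in Vsir-/- libraries, against 2.85, 2.81 and 2.75 in WT libraries. The ratio of CPM was thus 4.38 in Vsir-/- and 6.99 in WT on average, a log2 difference of -0.68. For Mthfd2 over Mthfd1 it was -0.26, -0.22 and -0.08 in Vsir-/- libraries, against 0.50, 0.46 and 0.43 in WT libraries. The log2 difference was -0.65. Since gene length differs, these values can be compared between genotypes and their sign has no meaning. For Mthfd1l over Mthfd1 it was -0.93, -0.84 and -0.90 in Vsir-/- libraries, against -0.60, -0.52 and -0.57 in WT libraries, a log2 difference of -0.32. In all 3 ratios every Vsir-/- library lay below every WT library. The ratios are not independent of each other, since Mthfd2 over Mthfd1 and Mthfd1l over Mthfd1 share Mthfd1. Their differences restate the fold changes given above.

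**Figure D3:**
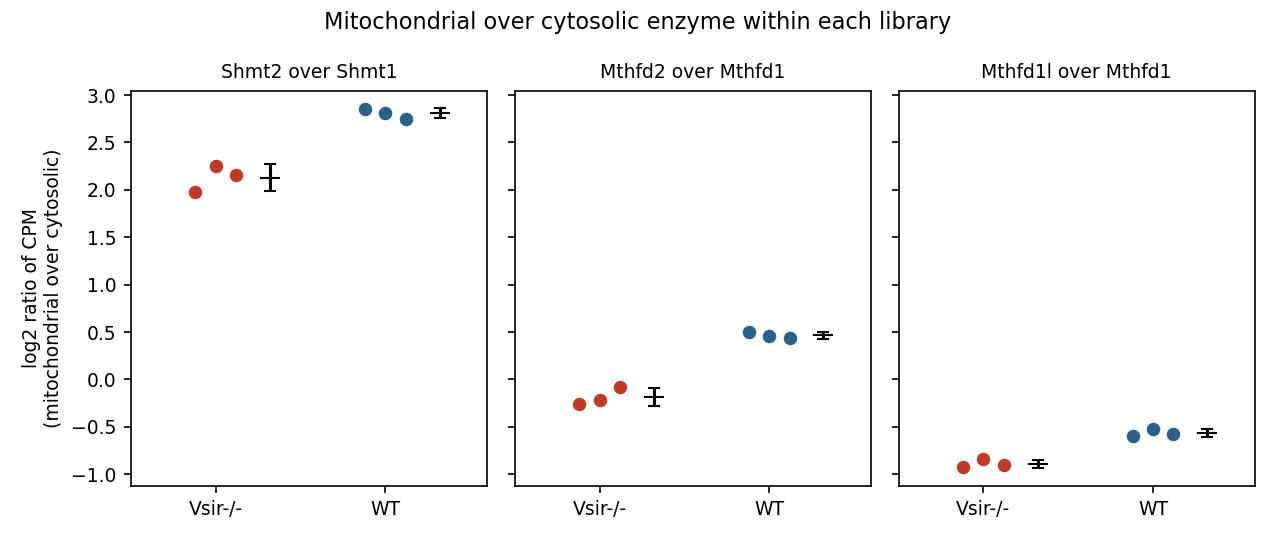
Log2 ratio of the CPM of a mitochondrial enzyme to that of its cytosolic counterpart (vertical axis) in each Vsir-/- library (red, left) and each WT library (blue, right), with the mean ± SD of each group (n = 3). All 3 ratios are lower in every Vsir-/- library than in any WT library, with mean log2 differences of -0.68 (Shmt2 over Shmt1), -0.65 (Mthfd2 over Mthfd1) and -0.32 (Mthfd1l over Mthfd1); their heights also depend on gene length.

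Levels can be compared between genes only per length, so CPM were divided by the length of the union of a gene's exons in GENCODE M21. Phgdh was highest, at 234 ± 8.43 CPM per kb in Vsir-/- and 193 ± 11.6 CPM per kb in WT (SD, n = 3 each). Shmt2 was next, at 215 ± 10.7 CPM per kb in Vsir-/- and 175 ± 10.6 CPM per kb in WT. In WT its range over libraries overlapped that of Phgdh, but within each library Phgdh lay above Shmt2. Psat1 had 171 ± 4.10 CPM per kb in Vsir-/- and 134 ± 3.09 CPM per kb in WT, and Mthfd2 had 95.5 ± 2.82 CPM per kb in Vsir-/- and 92.8 ± 1.62 CPM per kb in WT. The means of these 4 genes had the same order in both genotypes.

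The lower places differed between the genotypes. Mthfd1 had 69.9 ± 5.03 CPM per kb in Vsir-/- and 43.3 ± 0.645 CPM per kb in WT, and Psph had 44.1 ± 5.97 CPM per kb in Vsir-/- and 49.9 ± 2.41 CPM per kb in WT. Mthfd1 thus stood above Psph in Vsir-/- and below it in WT, with no overlap of the libraries in either genotype. Shmt1 had 39.5 ± 1.98 CPM per kb in Vsir-/- and 20.2 ± 1.01 CPM per kb in WT, and Mthfd1l had 28.7 ± 2.54 CPM per kb in Vsir-/- and 22.2 ± 0.951 CPM per kb in WT. Shmt1 stood above Mthfd1l in Vsir-/- without overlap. In WT it was the lowest of the 8 and lay below Mthfd1l within each library, although the ranges overlapped by a narrow margin. In Vsir-/- the Shmt1 libraries also overlapped those of Psph. The order of the means was the same when the length of 1 principal transcript per gene was used.

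**Figure D4:**
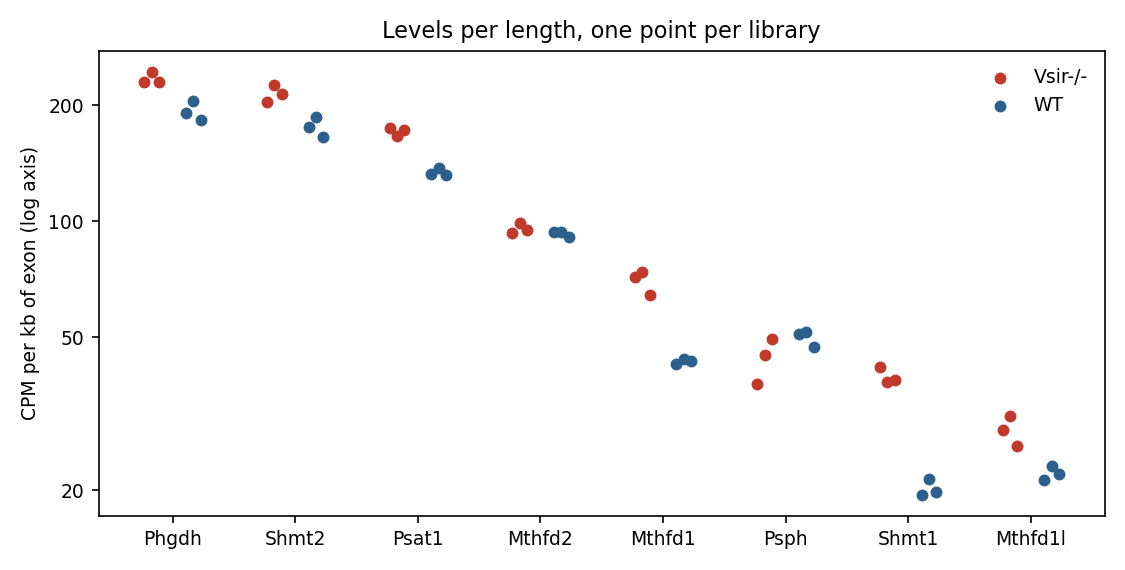
Level per length, in CPM per kb of exon (vertical axis, logarithmic), of the 8 genes in each Vsir-/- library (red, left of each pair) and each WT library (blue), ordered by the mean in Vsir-/-. Phgdh, Shmt2 and Psat1 lie above the other 5 genes in every library, and Shmt1 lies above Mthfd1l in Vsir-/- and is last in WT.

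On GRCm38 (GENCODE M21) the 8 genes lie on 7 chromosomes. The cytosolic Shmt1 spans chr11:60788104-60811718 and Mthfd1 chr12:76255298-76319803. The serine synthesis genes span chr3:98313170-98339990 (Phgdh), chr19:15904678-15947337 (Psat1) and chr5:129765558-129787449 (Psph). The mitochondrial genes span chr10:127517123-127522444 (Shmt2), chr6:83305691-83325908 (Mthfd2) and chr10:3973118-4167081 (Mthfd1l). Shmt2 and Mthfd1l share chromosome 10 with Vsir, at 67.1 and 56.2 Mb from it, and whether sequence of the strain in which the Vsir allele was made reaches either gene was not tested. Shmt1 overlaps Smcr8 on the other strand. Smcr8 had 26.3 to 40.7 CPM in Vsir-/- libraries and 17.1 to 26.0 CPM in WT libraries, and whether reads were assigned by strand is not given in the sources used here.

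The genes whose profile over the 6 libraries was most like that of Shmt1, by the root mean square difference of centred log2 CPM among the 8566 genes that averaged 10 CPM or more, were Naa25, Nsun2 and Atp2b4. Naa25, a subunit of an N-terminal acetyltransferase, averaged 147 ± 4.25 CPM in Vsir-/- and 73.6 ± 2.85 CPM in WT (SD, n = 3 each), with a difference from Shmt1 of 0.03 log2 units. Nsun2, an RNA cytosine methyltransferase, and Atp2b4, a calcium pump of the plasma membrane, each differed from it by 0.04 log2 units. The likeness is a description over 6 libraries.

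Around these enzymes, 2 of 3 folate carrier genes tested and 3 of 3 genes of the glycine cleavage system tested were higher in Vsir-/- ILC2s. Beside the counts of these and the following lists stand 18.9% of all genes called higher and 20.1% called lower. Among genes at or above the level of the lowest enzyme gene, 28.0% were called higher. Slc19a1, the reduced folate carrier of the plasma membrane, had 133, 136 and 129 CPM in Vsir-/- libraries, against 60.4, 64.3 and 51.9 CPM in WT libraries. Its log2 fold change was 1.17 (SE 0.10, edgeR adjusted p = 1.02e-05), larger than that of any of the 8 enzyme genes. Slc46a1, the proton-coupled folate transporter, was low, at 2.37 to 3.89 CPM in Vsir-/- libraries and 1.22 to 1.88 CPM in WT libraries. It was called (log2 fold change 0.94, adjusted p = 0.0206), except without Vsir-/- replicate 2 (0.0861) or WT replicate 3 (0.0633). Slc25a32, the carrier into mitochondria, was not called (log2 fold change 0.13, adjusted p = 0.404).

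The glycine cleavage system breaks down glycine in mitochondria and gives a further one-carbon unit. The genes that rose were Gcsh by 0.78, Gldc by 0.68 and Dld by 0.36 on the log2 scale. Amt, the other gene listed for this system, was absent from the count table and could not be tested. Gldc, its decarboxylase, was low and even, at 11.6 to 11.7 CPM in Vsir-/- libraries and 7.03 to 7.45 CPM in WT libraries. Dld also serves other dehydrogenase complexes of mitochondria.

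The other enzymes that interconvert folates went both ways, with 3 higher, 2 lower and 5 not called of 10 tested. Aldh1l2, the mitochondrial 10-formyltetrahydrofolate dehydrogenase, rose at a low level, with 6.04 to 8.02 CPM in Vsir-/- libraries and 3.57 to 4.19 CPM in WT libraries (log2 fold change 0.84, adjusted p = 0.00361). Fpgs, which adds the glutamate tail that holds folates in the cell, rose by 0.45, and Ggh, which removes it, fell by 0.45 on the log2 scale. Mthfd2l, the close relative of Mthfd2 in mitochondria, fell by 0.47 on the log2 scale. The calls of Ggh and Mthfd2l were each lost when Vsir-/- replicate 2, WT replicate 1 or WT replicate 2 was left out, with adjusted p-values of 0.0591 to 0.122, and that of Ggh (0.0822) also without Vsir-/- replicate 1. The count of lower genes was then 0, or 1 without Vsir-/- replicate 1.

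Of 7 methionine cycle genes 3 rose, 2 fell and 2 were not called. Mtr, methionine synthase, rose by 0.51, its reductase Mtrr by 0.39, and Mat2a, which makes S-adenosylmethionine, by 0.28 on the log2 scale. Mat2b, its regulatory partner, fell by 0.45, and Ahcyl2, a relative of the enzyme that cleaves S-adenosylhomocysteine, fell by 1.54 with 114 to 149 CPM in Vsir-/- libraries and 348 to 441 CPM in WT libraries. The count of higher genes was 1 without WT replicate 1 or WT replicate 2, where Mtrr (adjusted p = 0.112 and 0.0858) and Mat2a (0.0715 and 0.0651) were not called; Mtrr (0.100) was also lost without Vsir-/- replicate 2 and Mat2a (0.0759) without Vsir-/- replicate 1. Among 8 serine and glycine transporters, Sfxn1, the mitochondrial serine carrier, rose by 0.41, its relative Sfxn3 fell by 0.51, and 6 were not called. The count of higher transporters was 2 without Vsir-/- replicate 3 or without WT replicate 3. Of 4 genes of transsulfuration and other uses of serine, Cth, which makes cysteine, rose by 1.51 on the log2 scale at a low level (mean 6.78 CPM in Vsir-/- and 2.30 CPM in WT), and 3 were not called.

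De novo purine synthesis, which takes formyl groups from the folate pool, moved in 1 direction in nearly all of its genes. Of 12 genes tested, 11 were higher, none was lower, and Prps2 was not called (log2 fold change -0.18, adjusted p = 0.324). The median log2 fold change was 0.54, against -0.01 over all genes. Atic and Gart, whose enzymes use the formyl group, rose by 0.61 and 0.46. Gart had 227, 251 and 203 CPM in Vsir-/- libraries, against 165, 168 and 161 CPM in WT libraries. Prps1 rose by 0.72, Impdh2 by 0.67, Gmps by 0.62, Pfas by 0.58, and Ppat and Adsl by 0.54 each. Without the S0 libraries 7 of the 12 were higher.

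Pyrimidine and thymidylate genes did not move in 1 direction, with 3 higher, 3 lower and 6 not called of 12. Tyms, which takes a one-carbon unit for thymidylate, had 123 to 148 CPM in Vsir-/- libraries and 135 to 162 CPM in WT libraries (log2 fold change -0.18, adjusted p = 0.200), and was named after its values were seen. Ctps1 rose by 0.60 and Dhodh by 0.58, whereas Ctps2 fell by 0.71 and Tk1, thymidine kinase of S phase, fell by 0.63 on the log2 scale. In the lower part of glycolysis 3 of 8 genes rose: Tpi1, which acts before 3-phosphoglycerate, by 0.44, and Pgam1 and Eno1, which act after it, by 0.49 and 0.31 on the log2 scale. Gapdh (adjusted p = 0.282) and Pgk1 (adjusted p = 0.165), whose enzymes carry out the last steps to 3-phosphoglycerate, were not called. Eno1 lost its call without Vsir-/- replicate 2 (0.0664), WT replicate 1 (0.0958) or WT replicate 3 (0.0874), and in the last case 1 gene of the list was called lower.

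**Figure D5:**
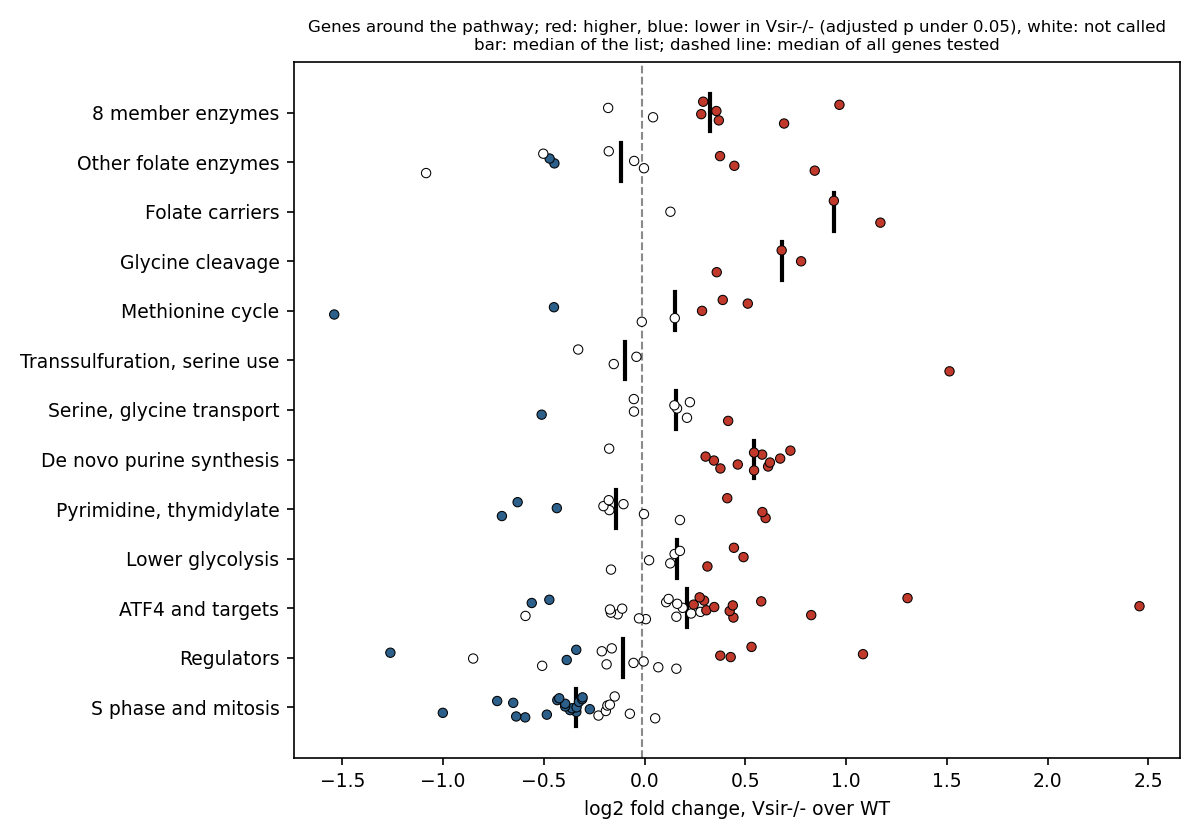
Log2 fold change of Vsir-/- over WT (horizontal axis) of every tested gene of 13 lists (rows), with red points higher and blue points lower in Vsir-/- ILC2s at an adjusted p of 0.05, white points not called, the black bar the median of a list and the dashed line the median of all genes (-0.01). Of the purine synthesis genes 11 of 12 lie in red, and of the S phase and mitosis genes 18 of 25 lie in blue.

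The S phase and mitosis genes, by contrast, were lower in Vsir-/- ILC2s: of 25 tested, none rose, 18 fell and 7 were not called, with a median log2 fold change of -0.34. Mki67, the gene of the proliferation marker Ki67, had 249.9, 264 and 194 CPM in Vsir-/- libraries, against 388, 365 and 423 CPM in WT libraries (log2 fold change -0.73, SE 0.12, adjusted p = 0.000713). Ccnb2, a mitotic cyclin, averaged 105 CPM in Vsir-/- and 211 CPM in WT, and Mcm6, of the replicative helicase, fell by 0.65 and Aurkb, a mitotic kinase, by 0.59 on the log2 scale. Without the S0 libraries 7 were called lower. The 6 enzyme genes that rose and the purine genes thus stood in libraries in which cell cycle genes were lower, and the part of the cell cycle in their levels was not tested.

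ATF4 is a transcription factor known to induce serine synthesis genes when amino acids are short, and MYC is known to raise genes of serine and nucleotide synthesis. Atf4 mRNA had 249, 227 and 296 CPM in Vsir-/- libraries, against 252, 231 and 209 CPM in WT libraries. The libraries overlapped and the gene was not called (log2 fold change 0.16, SE 0.11, adjusted p = 0.300). Of Atf4 and its known targets outside the 8 genes, 12 of 28 rose, 2 fell and 14 were not called, with a median log2 fold change of 0.21. The 12 that rose stand beside 18.9% of all genes called higher, and 28.0% of the genes at or above the level of the lowest enzyme gene. The 2 that fell stand beside 20.1% of all genes called lower. In either direction 14 of the 28 were called, beside 38.9% of all genes and 50.9% of the genes at or above that level. Many of the 28 lay below that level. Some of the 12 that rose lost their call when 1 library was left out, with edgeR adjusted p-values up to 0.145, whereas the called genes named below kept theirs. Nupr1, a stress-induced gene, rose by 2.46, Vldlr by 1.30, Cebpb by 0.83, Asns, asparagine synthetase, by 0.44, Pycr1 by 0.44, Nars by 0.35 and Gars by 0.31, whereas Slc3a2, the heavy chain of amino acid transporters, fell by 0.56 on the log2 scale. Without the S0 libraries 2 of these 28 genes rose.

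Myc had 219, 282 and 221 CPM in Vsir-/- libraries, against 102, 117 and 122 CPM in WT libraries. The genotypes lay far apart, with a log2 fold change of 1.08 (SE 0.12, edgeR adjusted p = 5.59e-05). Of the 16 sensors and regulators of the pathway, 4 rose, 3 fell and 9 were not called. Over all genes, 18.9% were called higher and 20.1% lower. Among genes at or above the level of the lowest enzyme gene, 28.0% were called higher. Trp53, whose protein is known to act on serine metabolism under starvation, rose by 0.53 and Mdm2, the ligase for p53, by 0.43, whereas Keap1, which restrains NRF2, fell by 0.39 on the log2 scale.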

How the data were processed

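Bulk RNA-Seq of 3 Vsir-/- and 3 WT ILC2 libraries was analysed. Each library started from 10 pg of RNA and a SMARTer kit, per the labels. The authors deposited 1 estimated count for each gene and library. The submitters' processing notes name Partek 10.0, STAR 2.7.8, DESeq2 and mm10, whereas the annotation, the strand setting and the treatment of reads that match several genes are not given in the sources used here. Counts were not whole (60.8% to 69.5% of a library's values lay within 0.01 of a whole number) and were rounded.

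The tools were edgeR 4.0.16, DESeq2 1.42.0 and limma 3.58.1 in R 4.3.3. filterByExpr (min.count 10, min.total.count 15) left 13166 genes, and TMM factors were 0.989 to 1.02. Genotypes were compared with no covariate by edgeR's quasi-likelihood F test, with Benjamini-Hochberg adjustment over all genes tested (threshold 0.05). Intervals are 95%. The largest counting error of an enzyme gene in a library was 3.35% of its value. Levels, ratios and lists were described without tests. In each of the 6 pairs of libraries within a genotype, counts differed by more than sampling noise, and none was merged. Repeat preparations of 1 sample can do the same, and the pairs whose labels hold the same number were the most alike (chi-square per degree of freedom 12.2, against 20.1 and 21.2 in Vsir-/-, and 10.2, against 12.1 and 26.8 in WT).

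The 8 genes, the lists and the tests were chosen with earlier results of these data known. Genes were named by rule: the 8 enzymes; Vsir, Atf4, Myc and Mki67; up to 4 called genes of each list by smallest p (up to 8 for folate, methionine cycle, transport, purine and ATF4 lists); receptors and excluded markers of the sort; and the 3 genes most like the enzyme gene with the largest change. Cct6a, Smcr8 and Gm7901 were named for their overlap or likeness in sequence. Apart from these and the genes named by rule, genes that were not called were named after their values were seen. Some genes of the lists are counted but not reported by name here.

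Alternatives were DESeq2, limma voom with quality weights, RLE factors, total counts only, no filter, a mean of at least 5 CPM, a replicate block, thinned counts, replicates 1 and 2 summed, no S0 libraries, each library left out and a threshold of 0.01. Use of 1 library per label number, pseudogene counts added to Phgdh and Shmt2, and list counts under every setting were added after the data were seen. Methods were tried on simulated counts that had the same scatter setting for every gene, which does not test the calls reported here.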

Additional observations from a re-analysis of the deposited data

How the results depend on the processing

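No result changed sign with a call, and DESeq2, limma voom, RLE factors, total counts, both filters, thinned counts and added pseudogene counts left the enzyme genes called at 6, all higher. Over all genes 5124 were called (2484 higher, 2640 lower), against 2480 (1206 and 1274) without the S0 libraries, 3216 (1491 and 1725) or 3240 (1591 and 1649) with 1 library per label number (replicates 2 and 3, or 1 and 3), and 3327 (1575 and 1752) at an adjusted p of 0.01. Of the 8 enzyme genes 3 were called with replicates 1 and 2 summed (3708 over all genes), 2 without the S0 libraries, 2 or 3 with 1 library per label number, and 3 at 0.01. The causes were not tested. The threshold of 0.01 was applied to all 6 libraries, whereas the other settings named here left out or summed libraries. Leaving out each library in turn gave 3 to 6 called, 3 to 6 of them higher.

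Log2 fold changes past the threshold in the fit reported, but not with replicates 1 and 2 summed, were 0.29 (Phgdh), 0.31 (Shmt2) and 0.34 (Mthfd1l). Those without the S0 libraries were 0.30 (Phgdh), 0.38 (Psat1), 0.30 (Shmt2) and 0.43 (Mthfd1l). With 1 library per label number they were 0.29 (Phgdh), 0.33 (Psat1), 0.32 (Shmt2) and 0.34 (Mthfd1l) for replicates 2 and 3, and 0.31 (Phgdh), 0.31 (Shmt2) and 0.35 (Mthfd1l) for replicates 1 and 3. With each library left out they ranged over 0.24 to 0.33 for Phgdh, 0.25 to 0.34 for Shmt2 and 0.32 to 0.45 for Mthfd1l.

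Replicate numbers are shared by the genotypes, but deviations of equally numbered libraries correlated at -0.08, 0.20 and -0.44 over 8567 genes, so the numbers were not taken as pairs. With a replicate block 4 enzyme genes were called (4094 over all genes), and Phgdh (log2 fold change 0.28, adjusted p = 0.0554) and Shmt2 (0.29, adjusted p = 0.0514) were not. Counting error was at most 3.35% for these genes, below the CV between libraries of both genotypes for all but Mthfd1 and Mthfd2 in WT.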
